A study of Sus scrofa with 6 samples.

Results

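The genes described here encode the motile axoneme, the microtubule core of cilia and sperm tails that beat. They comprise the axonemal dyneins, the cilia and flagella associated proteins (CFAPs), the radial spokes and the parts that join them. They were chosen by symbol: a gene of the count table entered if its name begins with DNAH, DNAI, DNAAF, CFAP, RSPH, ODAD, TEKT, DRC and a digit, SPAG6, SPAG16, SPAG17 or SPEF, or is ZMYND10, HYDIN, CCDC39, CCDC40, LRRC6, GAS8 or AK7. This gave 86 of the 17670 genes in the table. The family itself was selected on earlier results of the same AA2P and control libraries, so its levels, fold changes and calls are a description of these libraries and are no independent support for a direction. Of the 17670 genes, 13141 had a symbol, and a gene is said below to have a row only if its symbol was found. Genes of the rule not found by symbol, among them HYDIN, SPAG17 and DNAH8, were not analysed here. Whether they are among the genes without a symbol was not checked.

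The libraries came from immature Sertoli cells, the somatic cells that later nurse the germ cells of the seminiferous tubule, from fetal pig testis at 80 to 90 days of gestation. There were 3 libraries of cells given 250 µM AA2P (L-ascorbic acid 2-phosphate, a vitamin C derivative that keeps in culture medium) once they had been 6 h in culture, and 3 of control cells. The length of the treatment is not given, and the labels do not say whether replicates were separate cultures or separate animals. The p-values therefore measure only the spread between these libraries, which may be technical.

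In a motile axoneme, dynein motors sit in rows on the outer microtubule doublets and slide them against each other. Outer arms give most of the beat's power, inner arms shape the bend, and the spokes and the nexin links carry signals and restrain the sliding around a central pair of microtubules. The arms are put together in the cytoplasm by assembly factors before they enter the cilium. In the testis such axonemes are known from sperm tails, and in the male tract from the multiciliated cells of the efferent ducts, while Sertoli cells are known to bear a single primary cilium.

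Library totals ran from 18747307 to 23122000 counts in the AA2P libraries and from 19299585 to 23521291 counts in the control libraries. Levels are given as CPM, that is counts scaled to library size with edgeR's TMM factors. By counting error, a gene with an expected count of up to 3, or 0.123 to 0.165 CPM, could still show no reads. The cells were checked against markers of the labelled type. Of 16 Sertoli genes listed, 12 had a row and 7 had enough counts to be tested. AMH, the anti-Müllerian hormone, had 32.7, 33.5 and 37.1 CPM in AA2P libraries and 34.7, 36.6 and 37.8 CPM in control libraries. SOX9, a Sertoli transcription factor, had 1.70, 2.58 and 2.38 CPM in AA2P libraries and 12.3, 11.5 and 11.02 CPM in control libraries. Of the 7 tested, 5 fell (SOX9, WT1, CLU, INHBB and VIM), AMH did not pass, and TF, the transferrin gene, rose, with 2.85, 4.06 and 1.81 CPM in AA2P libraries and 0.361, 0.110 and 0.243 CPM in control libraries. TF passed the filter on low counts only through its AA2P libraries. Across all 12701 genes tested, 26.0% rose and 26.1% fell, a share to hold beside the counts of each marker list. INHA, DHH, KITLG, AMHR2 and NR5A1 were not abundant enough to be tested, and INHA had 0 counts in each AA2P library and at most 1 in a control library. Genes of the renal tubule were present: all 7 with a row rose with AA2P, with a summed level of 1095 to 1440 CPM in AA2P libraries and 330.7 to 381.7 CPM in control libraries. LRP2, an endocytic receptor of the proximal tubule, had 742, 697 and 474 CPM in AA2P libraries and 92.7, 65.1 and 82.6 CPM in control libraries, and SLC34A1, a phosphate transporter, and PAX2, a kidney transcription factor, rose 5.67-fold and 1.36-fold. AA2P library 3 lay nearest the controls, with a mean correlation of log2 CPM with them, across genes, of 0.970, against 0.959 and 0.961 for AA2P libraries 1 and 2.

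Most axoneme genes were higher with AA2P. Of the 86 genes, 77 had enough counts to be tested, and 67 rose, 3 fell and 7 did not pass the threshold, an adjusted p of 0.05 (edgeR quasi-likelihood test, adjusted by Benjamini and Hochberg's method over all genes). Across all 12701 genes tested, 52.1% passed, 26.0% higher and 26.1% lower. The median log2 fold change (AA2P over control) was 0.87 in the 77 axoneme genes tested and -0.00 over all genes tested. In 33 axoneme genes the rise was at least 2-fold, a size that 5.53% of all genes tested reached among those called higher. Both the 67 and the 33 hold DNAI1, CFAP43, CFAP77 and DRC7. These passed the filter on low counts only through their AA2P libraries, where they were high, so the counts and the median are a description. In 67 of the 77 all AA2P libraries lay above all control libraries, as in 29.8% of all genes tested, and these were the 67 genes that rose. Their fold changes ran from 1.11 in DNAAF9 to 5.66 in RSPH4A, and the adjusted p-values from 2.7e-12 in CFAP44 to 0.0318 in DNAAF9. In libraries of whole cultures, more cells with such transcripts and more transcript per cell cannot be told apart.

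**Figure D1:**
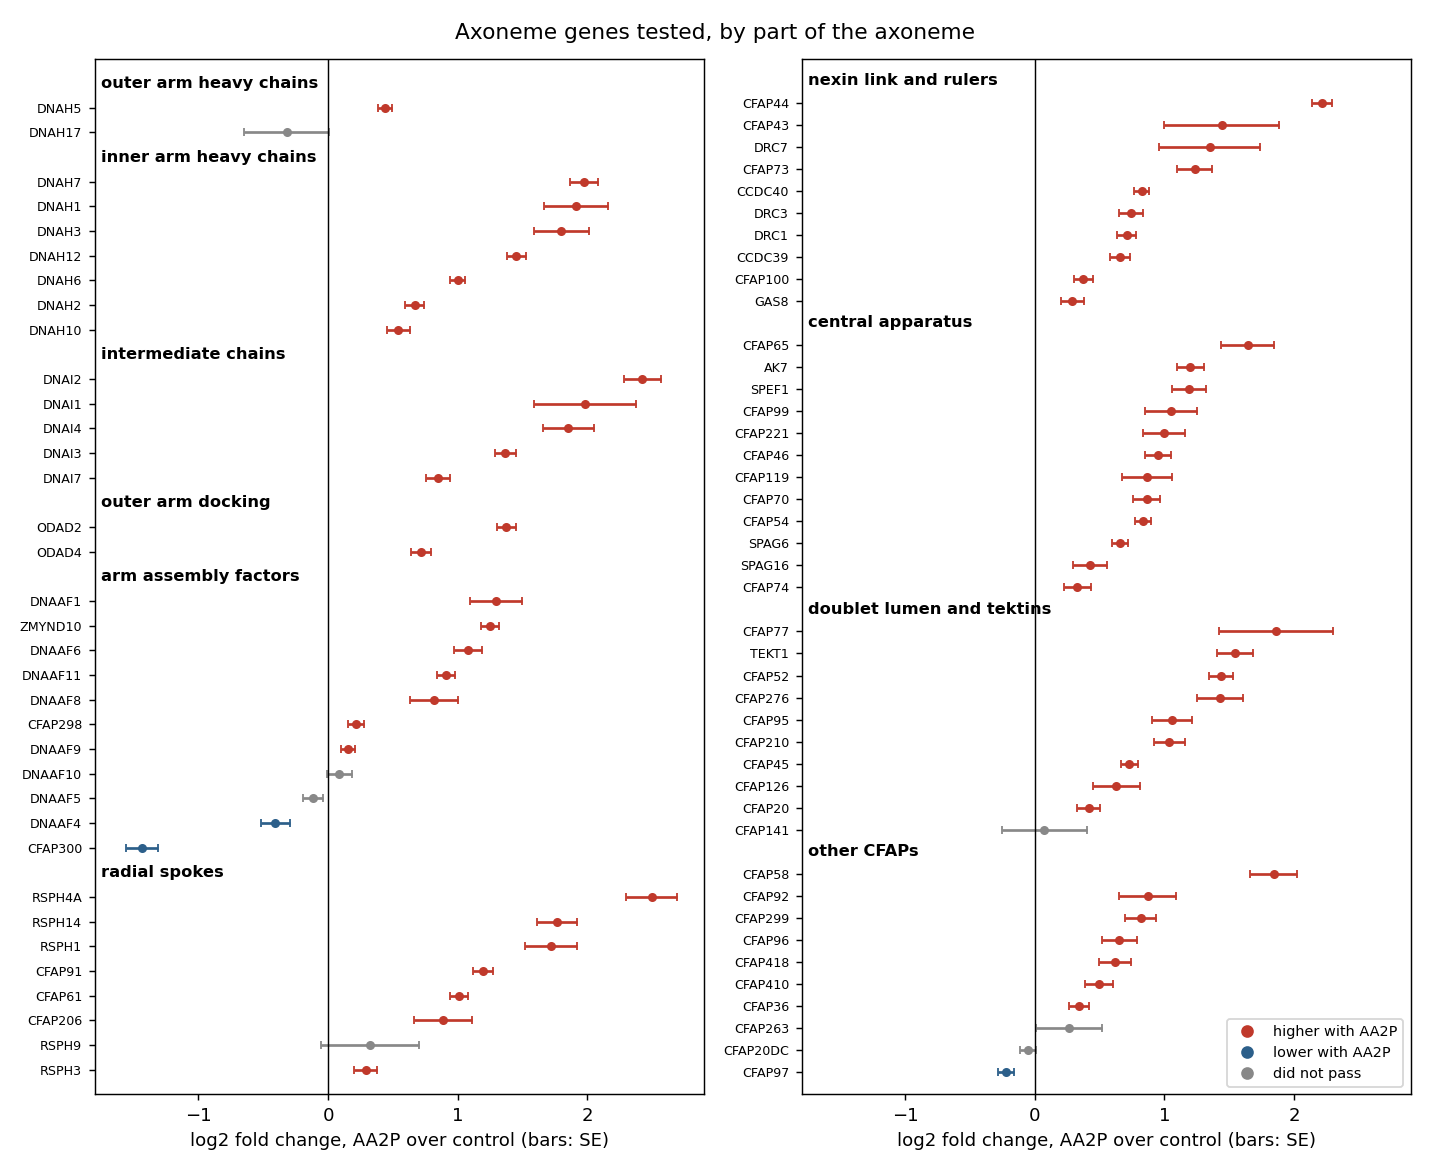
Log2 fold change, AA2P over control, of the 77 axoneme genes tested, grouped by part of the axoneme; bars are standard errors and n is 3 libraries per group. Most points lie right of 0, and CFAP300 stands alone below -1.

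The scaling of the libraries matters to small changes. Scaled by library totals alone, the median log2 fold change of all genes tested moved to 0.17 and the calls over all genes to 5727 higher and 1822 lower, against 3302 and 3313. Under that scaling 68 axoneme genes were higher and 1 lower, the 67 of the TMM scaling among the 68. Of the 77 tested, 71 had enough counts in every control library, while DNAI1, CFAP43, CFAP77, CFAP141 and DRC7 passed the filter on low counts only through their AA2P libraries. The 9 genes not tested were CFAP57, CFAP97D1, CFAP161, DNAH9, DNAH11, ODAD3, RSPH6A, TEKT2 and TEKTL1.

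Among the outer arm heavy chains, the motor subunits of the outer row, reads were found mainly for DNAH5. DNAH5 had 247, 247 and 222 CPM in AA2P libraries and 169.7, 184 and 173 CPM in control libraries. Every AA2P library was above every control library, and the rise was small, with a log2 fold change of 0.44 ± 0.05 (SE, n = 3 per group). DNAH9 and DNAH11, the partners of DNAH5 in airway cilia, were near the limit of detection. DNAH17, an outer arm chain of sperm tails, was low, with 9 to 14 counts in each library. DNAH9 had 0 counts in each AA2P library, against 0, 1 and 0 in control libraries, and DNAH11 had 6, 2 and 2 counts in AA2P libraries and 2, 1 and 1 in control libraries. DNAH17 averaged 0.513 ± 0.074 CPM in AA2P libraries and 0.639 ± 0.0374 CPM in control libraries (SD, n = 3), and its log2 fold change of -0.32 ± 0.33 (SE) did not pass.

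All 7 inner arm heavy chains with a row rose. Their summed level was 353 to 410 CPM in AA2P libraries and 176 to 182 CPM in control libraries. DNAH7, a single-headed inner arm chain, had 28.0, 25.0 and 22.2 CPM in AA2P libraries, against 6.85, 6.39 and 5.83 CPM in control libraries, with a log2 fold change of 1.97 ± 0.11 (SE). DNAH12, another single-headed chain, had 130.2, 119 and 103 CPM in AA2P libraries and 41.8, 42.6 and 44.2 CPM in control libraries. For both genes the groups were far apart, and the AA2P libraries differed more among themselves than the controls did. DNAH6 had 188, 184 and 164 CPM in AA2P libraries and 86.6, 90.0 and 90.8 CPM in control libraries, a 2.00-fold difference. DNAH1 and DNAH3, at averages of 2.55 ± 0.141 and 3.33 ± 0.198 CPM in AA2P libraries and 0.662 ± 0.207 and 0.940 ± 0.195 CPM in control libraries (SD, n = 3), rose 3.77-fold and 3.48-fold.

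DNAH2 and DNAH10 form the one inner arm with 2 motor heads, and they had the smallest fold changes of the 7 inner arm chains. DNAH2 had 38.0, 38.8 and 38.1 CPM in AA2P libraries and 24.4, 21.4 and 26.4 CPM in control libraries, with a log2 fold change of 0.67 ± 0.08 (SE). DNAH10 had 19.5, 22.1 and 19.3 CPM in AA2P libraries and 14.5, 14.1 and 13.3 CPM in control libraries, with a log2 fold change of 0.54 ± 0.09 (SE). In neither gene did the groups overlap. The difference between these 2 genes and the other inner arm chains was not tested.

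The intermediate chains, which anchor the motors and regulate them, rose in all 5 genes, with a median log2 fold change of 1.86. Among them, DNAI1 passed the filter on low counts only through its AA2P libraries, where it was high, so the count and the median are a description. DNAI2, an outer arm chain, had 12.3, 10.8 and 10.1 CPM in AA2P libraries, against 2.12, 2.20 and 1.84 CPM in control libraries, a 5.38-fold rise. Its outer arm partner DNAI1 had 31, 40 and 26 counts in AA2P libraries and 8, 12 and 3 counts in control libraries, and its log2 fold change of 1.98 ± 0.39 (SE) rests on those few reads. The rise of DNAI2 and DNAI1 stood beside the smaller one of DNAH5, the heavy chain of the same arm, and the difference was not tested. DNAI3 and DNAI4, chains of the 2-headed inner arm, rose 2.58-fold and 3.62-fold, and DNAI7, an inner arm associated protein, rose 1.80-fold. DNAI3 had 56.6, 58.3 and 47.4 CPM in AA2P libraries and 21.6, 21.5 and 19.7 CPM in control libraries.

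**Figure D2:**
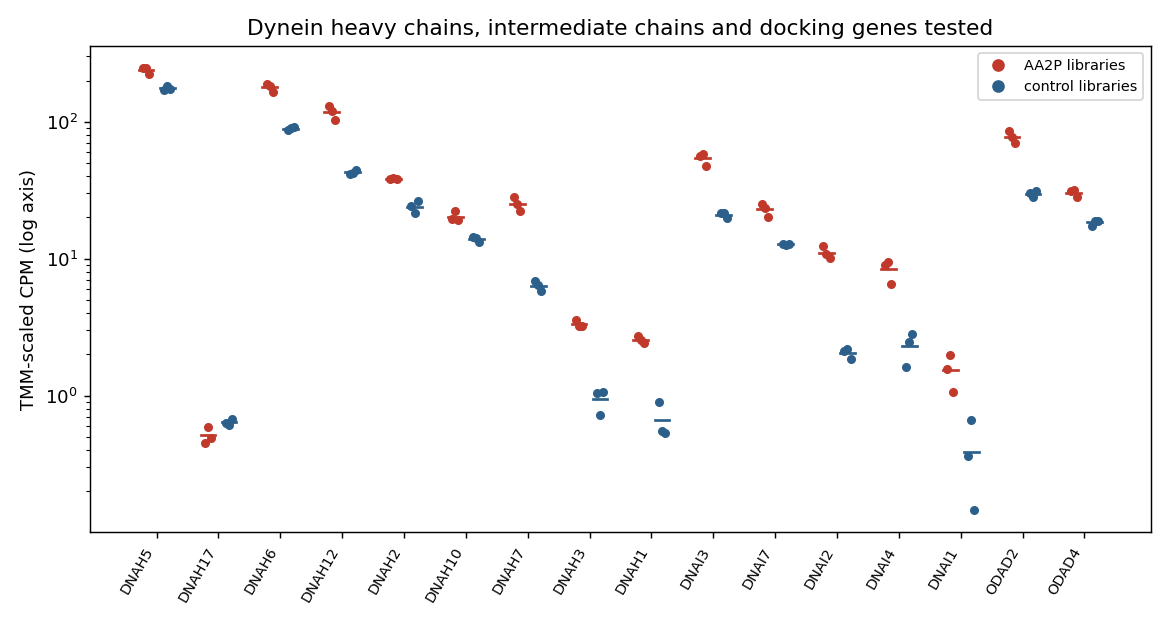
TMM-scaled CPM on a log axis for each library, with group means as lines, for the dynein heavy chains, intermediate chains and docking genes tested. The AA2P libraries lie above the controls in every gene but DNAH17; levels of different genes are not scaled to length and are not to be compared.

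Outer arms are fixed to the doublets by a docking complex, and 2 of its 3 genes with a row could be tested. ODAD2, an armadillo repeat protein, had 85.5, 77.9 and 69.7 CPM in AA2P libraries and 30.2, 28.1 and 31.4 CPM in control libraries, with a log2 fold change of 1.38 ± 0.08 (SE). ODAD4, which helps to place the docking complex, averaged 30.3 ± 1.71 CPM in AA2P libraries and 18.4 ± 0.907 CPM in control libraries (SD, n = 3). Both rose. ODAD3, a coiled-coil subunit, had 8, 4 and 5 counts in AA2P libraries and 1, 0 and 1 in control libraries, too few for the test.

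The assembly factors, which fold and preassemble the arms in the cytoplasm, moved both ways. Of 11 genes, 7 rose, 2 fell and 2 did not pass, and the median log2 fold change was 0.21. ZMYND10 and DNAAF11 (also called LRRC6), which bind each other, rose. ZMYND10 had 65.2, 73.3 and 64.6 CPM in AA2P libraries and 28.7, 29.0 and 27.6 CPM in control libraries, and DNAAF11 averaged 46.3 ± 1.38 CPM in AA2P libraries and 24.6 ± 1.60 CPM in control libraries (SD, n = 3). DNAAF1 and DNAAF6 rose 2.46-fold and 2.11-fold, and DNAAF8 1.77-fold. CFAP298 rose 1.16-fold and DNAAF9 1.11-fold, and the adjusted p of CFAP298 was 0.0550 when control replicate 1 was left out. DNAAF9 missed it in 5 of the 6 fits that left out 1 library, with adjusted p-values of 0.0567 to 0.118 in edgeR's test.

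CFAP300, a factor needed for both rows of arms, fell to 4.46, 4.01 and 4.11 CPM in AA2P libraries, against 10.2, 11.2 and 12.7 CPM in control libraries. Its log2 fold change of -1.44 ± 0.12 (SE) was the lowest of the 77 genes and kept its call under the 14 other settings tried. DNAAF4, a co-chaperone, had 7.61, 7.18 and 7.35 CPM in AA2P libraries and 9.33, 8.93 and 11.1 CPM in control libraries, and fell, but not with library totals, where its adjusted p was 0.0843 in edgeR's test. DNAAF5 and DNAAF10, which did not pass, had 22.1 ± 1.60 and 16.1 ± 1.30 CPM in AA2P libraries and 23.9 ± 0.888 and 15.2 ± 1.34 CPM in control libraries (SD, n = 3).

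**Figure D3:**
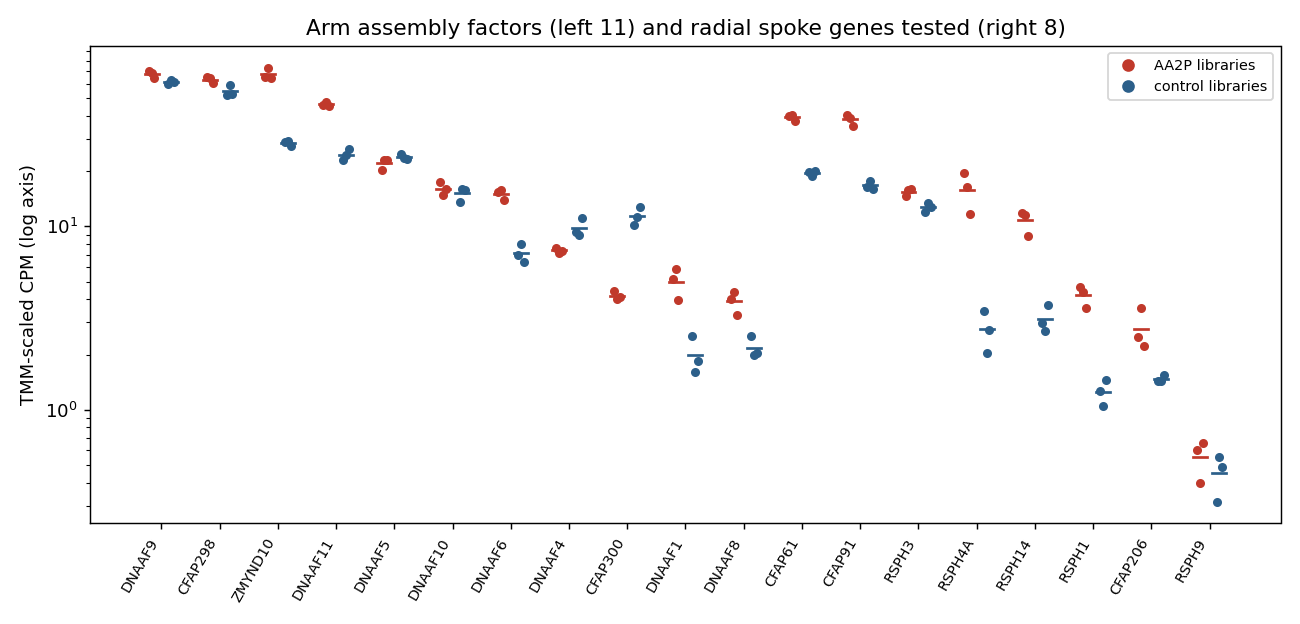
TMM-scaled CPM on a log axis for each library, with group means as lines, for the 11 arm assembly factors and the 8 radial spoke genes tested. CFAP300 and DNAAF4 lie lower in AA2P libraries, while ZMYND10, RSPH4A, RSPH14 and RSPH1 lie higher.

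Radial spokes link the doublets to the central pair. Of 9 spoke genes, 8 were tested and 7 rose. RSPH4A, a protein of the spoke head, had 19.5, 16.5 and 11.6 CPM in AA2P libraries, against 3.47, 2.04 and 2.72 CPM in control libraries, with a log2 fold change of 2.50 ± 0.20 (SE). Its lowest AA2P library was above the highest control, though the AA2P libraries were themselves spread. RSPH1, another spoke head protein, averaged 4.20 ± 0.559 CPM in AA2P libraries and 1.26 ± 0.205 CPM in control libraries (SD, n = 3), and RSPH14 rose 3.40-fold. The spoke head gene RSPH9 had 12, 8 and 16 counts in AA2P libraries and 7, 10 and 10 counts in control libraries, and did not pass.

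The spoke base proteins CFAP61 and CFAP91 rose 2.01-fold and 2.29-fold. CFAP91 had 40.7, 39.0 and 35.2 CPM in AA2P libraries and 16.4, 17.7 and 16.02 CPM in control libraries. RSPH3, a spoke stalk protein, averaged 15.5 ± 0.699 CPM in AA2P libraries and 12.7 ± 0.752 CPM in control libraries (SD, n = 3), and its adjusted p in edgeR's test was 0.0684 when control replicate 1 was left out. CFAP206, which helps to dock a spoke, rose 1.85-fold. RSPH6A, a spoke gene of sperm, had 1 to 6 counts in each library.

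The nexin links and the rulers that set the axoneme's repeat rose in all 10 genes tested. Of these 10, CFAP43 and DRC7 passed the filter on low counts only through their AA2P libraries, where they were high, so the count is a description. CFAP44, part of a tether that holds the head of an inner arm, had 49.0, 50.6 and 45.2 CPM in AA2P libraries and 10.4, 9.86 and 10.7 CPM in control libraries, a log2 fold change of 2.22 ± 0.08 (SE). CFAP43, its partner in the tether, had 11, 11 and 19 counts in AA2P libraries and 8, 2 and 4 in control libraries, so that its rise rests on few reads. CFAP57, another protein linked to inner arms, had 7, 10 and 5 counts in AA2P libraries and 1, 0 and 0 in control libraries and was not tested.

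The ruler pair CCDC39 and CCDC40 rose 1.58-fold and 1.77-fold. CCDC40 had 47.7, 51.0 and 49.6 CPM in AA2P libraries and 28.0, 27.6 and 28.2 CPM in control libraries, with little spread in either group. DRC1, a scaffold of the nexin link, averaged 30.7 ± 1.37 CPM in AA2P libraries and 18.8 ± 1.08 CPM in control libraries (SD, n = 3), and DRC3 rose 1.67-fold. GAS8, also called DRC4, rose 1.22-fold, with 24.7, 29.4 and 23.9 CPM in AA2P libraries and 22.7, 19.8 and 21.2 CPM in control libraries. CFAP73 and CFAP100, known from green algae as a complex that modifies inner arms, rose 2.35-fold and 1.30-fold. Calls of 3 genes depended on a single library: GAS8 had adjusted p = 0.0970 without AA2P replicate 2 and 0.0675 without control replicate 2, DRC7 had 0.0549 without AA2P replicate 2, and CFAP43 had 0.0603 without control replicate 2, in edgeR's test. CFAP43 had adjusted p = 0.0515 in DESeq2's Wald test.

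All 12 genes of the central apparatus with a row rose, with log2 fold changes of 0.33 to 1.64. SPAG6, an armadillo repeat protein of the central pair, had 89.7, 86.4 and 77.4 CPM in AA2P libraries and 51.2, 54.0 and 55.6 CPM in control libraries. CFAP54, a large projection protein, averaged 59.5 ± 2.64 CPM in AA2P libraries and 33.3 ± 2.02 CPM in control libraries (SD, n = 3). The groups were apart in both. AK7, an adenylate kinase of cilia, had 26.1, 24.5 and 19.8 CPM in AA2P libraries and 10.3, 10.4 and 9.95 CPM in control libraries, and CFAP46, a protein of the central apparatus, rose 1.93-fold. SPEF1, a microtubule-bundling protein of the central pair, rose 2.28-fold and CFAP65 3.12-fold. CFAP70, CFAP74, CFAP99, CFAP119 and CFAP221 rose as well, with CFAP74 lowest, at 1.25-fold, and CFAP99 highest, at 2.07-fold. SPAG16, also of the central pair, averaged 11.9 ± 1.44 CPM in AA2P libraries and 8.77 ± 1.56 CPM in control libraries (SD, n = 3), and had adjusted p = 0.0718 in edgeR's test without control replicate 2.

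Proteins inside the doublet microtubules stiffen them. Of 13 such genes, tektins included, 10 were tested and 9 rose. CFAP77 and CFAP141 passed the filter on low counts only through their AA2P libraries, so the count of 9, which holds CFAP77, is a description. CFAP52 and CFAP45, which line one tubule of the doublet, rose 2.71-fold and 1.66-fold. CFAP52 had 26.8, 27.8 and 24.2 CPM in AA2P libraries and 10.4, 8.65 and 9.90 CPM in control libraries. CFAP20, which seals the junction of the doublet, averaged 25.9 ± 0.720 CPM in AA2P libraries and 19.4 ± 2.18 CPM in control libraries (SD, n = 3), and CFAP210 rose 2.05-fold. TEKT1, a tektin filament protein, had 14.2, 13.6 and 10.4 CPM in AA2P libraries and 4.51, 4.02 and 4.47 CPM in control libraries. CFAP95 and CFAP276 rose 2.08-fold and 2.70-fold. CFAP77 had 15, 16 and 16 counts in AA2P libraries and 6, 1 and 5 in control libraries, so that its rise rests on few reads, and CFAP141, with 17, 16 and 16 counts in AA2P libraries and 10, 15 and 19 in control libraries, did not pass. TEKTL1 had 6 to 15 counts in AA2P libraries and 6 to 10 in control libraries. TEKT2 and CFAP161 had 0 counts in each AA2P library and at most 1 in a control library. CFAP126 rose 1.55-fold and had adjusted p = 0.0688 without AA2P replicate 2 and 0.0542 without control replicate 1, in edgeR's test.

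The other 11 CFAP genes, whose place in the axoneme is less certain or lies outside it, were mixed. Of 10 tested, 7 rose, 1 fell and 2 did not pass. CFAP58 rose 3.59-fold, with 4.66, 4.66 and 4.72 CPM in AA2P libraries and 1.08, 1.38 and 1.46 CPM in control libraries. CFAP36 and CFAP418 rose 1.27-fold and 1.53-fold. CFAP97 fell, with 48.9, 42.9 and 45.3 CPM in AA2P libraries and 52.1, 53.0 and 55.0 CPM in control libraries. Its call was lost with library totals, at an adjusted p of 0.483 in edgeR's test, and without AA2P replicate 2, at 0.0518. CFAP20DC had 62.7 ± 5.32 CPM in AA2P libraries and 65.2 ± 1.04 CPM in control libraries (SD, n = 3), and did not pass. The groups overlapped in CFAP263, which did not pass either. CFAP299, CFAP92, CFAP96 and CFAP410 rose, with log2 fold changes of 0.82, 0.87, 0.65 and 0.50. CFAP97D1 had 4 to 7 counts in AA2P libraries and 1 to 4 in control libraries and was not tested.

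**Figure D4:**
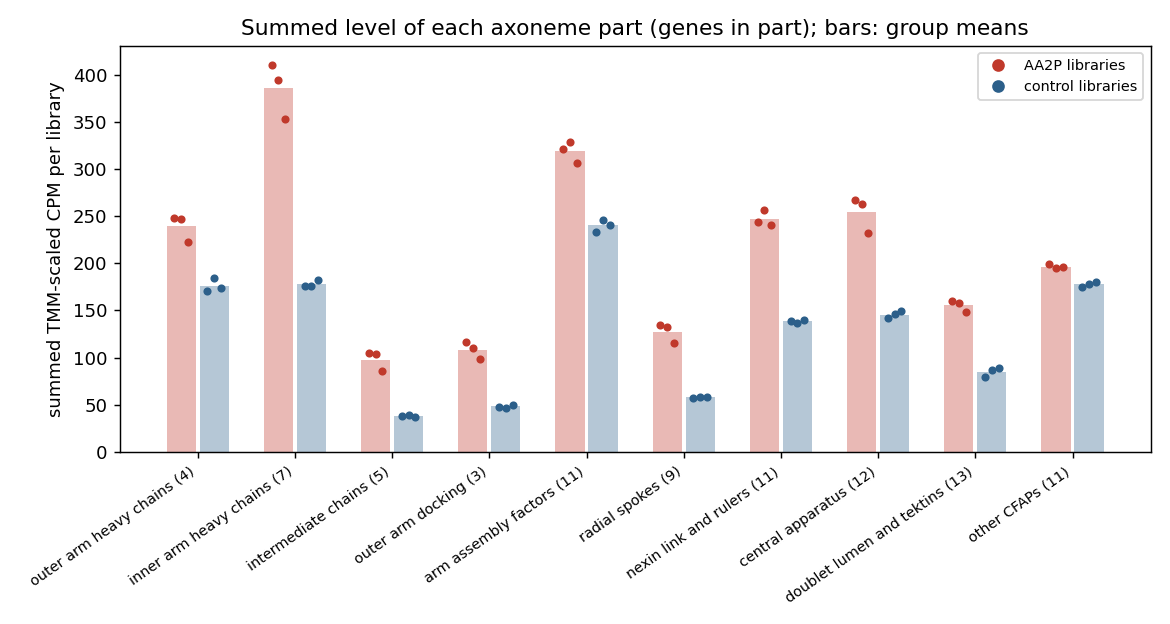
Summed TMM-scaled CPM of the genes of each axoneme part in each library (points), with group means as bars and the number of genes in brackets. In all 10 parts the AA2P libraries lie above the controls, with ratios of the group means of 1.11 in the other CFAPs to 2.55 in the intermediate chains; levels of different parts are not scaled to gene length.

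Within the AA2P group most of the axoneme genes that rose were lowest in library 3. It held the lowest AA2P value in 53 of the 67 genes that rose (79.1%), and in 1851 of all 3302 genes called higher (56.1%). The median log2 ratio to the control mean over the 77 genes, on CPM with 0.1 added, was 0.82, 0.98 and 0.78 in AA2P libraries 1, 2 and 3. Over all genes called higher, that median was 0.47, 0.47 and 0.41 in the same libraries, so it was also lowest in library 3. Without AA2P replicate 3 the same 67 genes rose and the same 3 fell, with a median log2 fold change of 0.94. The summed renal tubule genes were also lowest in that AA2P library, at 1095 CPM, against 1440 and 1430 CPM in AA2P libraries 1 and 2, and the part of those cells or genes in the axoneme results was not tested.

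Reads of a neighbour can be counted for a gene that overlaps it, since the strand setting of the counting is not known here. Of 57 axoneme genes found by symbol in the RefSeq table of the pig assembly Sscrofa11.1, 22 overlap another gene (38.6%), against 36.1% of the tested genes found there. Axoneme genes not found there by symbol were not checked for overlap. The 57 hold genes that were not tested, so the 2 shares are of unlike sets. Among them, DNAH9, DNAH11 and RSPH6A overlap another gene, and TEKT2 and CFAP161 do not. The 15 neighbours with a test comprised 1 that rose, 6 that fell and 8 that did not pass. RSPH4A, CFAP44, DNAH12 and DNAH2 are among the genes whose neighbours had no test under their RefSeq names, so none was compared. RASSF1, which overlaps ZMYND10, averaged 14.9 CPM in AA2P libraries and 30.5 CPM in control libraries and had a log2 fold change of -1.03 ± 0.09 (SE), opposite to ZMYND10. SLC39A10, a zinc transporter gene that overlaps DNAH7, averaged 45.6 CPM in AA2P libraries and 60.3 CPM in control libraries, also opposite in direction. GNAZ, which overlaps RSPH14, rose, with a log2 fold change of 0.28 ± 0.06 (SE), against 1.77 ± 0.15 for RSPH14. Of the 33 tested axoneme genes with no overlap in that table, 31 rose and 1 fell, with a median log2 fold change of 0.89.

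Genes of the motile cilium that fall outside the symbol rule were listed by function, with earlier results of these data known. Of 69 listed, 36 had a row under the listed name and 34 were tested, and 28 rose and 1 fell, with a median log2 fold change of 0.95. Over all genes tested, 26.0% rose, 26.1% fell and the median was -0.00. Of these 34, CCDC146, CCDC78 and RIBC1 passed the filter on low counts only through their AA2P libraries, where they were high, so the count and the median are a description. ARMC2, an armadillo repeat protein needed for sperm tails in the mouse, averaged 119.6 ± 4.66 CPM in AA2P libraries and 56.9 ± 5.16 CPM in control libraries (SD, n = 3), and ENKUR, a protein of the doublet lumen, rose 1.40-fold. CCDC170, the gene that fell, averaged 49.3 CPM in AA2P libraries and 56.8 CPM in control libraries, and it did not pass with library totals, where none of the 34 fell.

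Regulators of motile cilia were measured alongside. FOXJ1, the forkhead factor that switches on motile cilium genes, had 367, 392.3 and 390.5 CPM in AA2P libraries and 169.2, 149 and 139.8 CPM in control libraries, and RFX2 and RFX3, regulatory factors of cilium genes, rose, with log2 fold changes of 1.42 ± 0.09 and 0.59 ± 0.06 (SE). Of the multiciliated cell list, 10 of 14 genes had a row and 9 were tested, of which 7 rose and none fell, against 26.0% and 26.1% of all genes tested. Of these 9, GMNC and CCNO passed the filter on low counts only through their AA2P libraries, where they were high, so the count of 7 is a description. GMNC, a switch at the start of multiciliated cell formation, had 19, 21 and 17 counts in AA2P libraries and 2, 0 and 0 in control libraries, and MCIDAS, which acts with it, had 8, 26 and 14 counts in AA2P libraries and 5, 6 and 1 in control libraries, too few for the test. TPPP3, a tubulin-binding protein of ciliated cells, averaged 61.4 CPM in AA2P libraries and 34.6 CPM in control libraries. MYB and DEUP1 did not pass. How far these regulators bear on the axoneme genes was not tested.

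**Figure D5:**
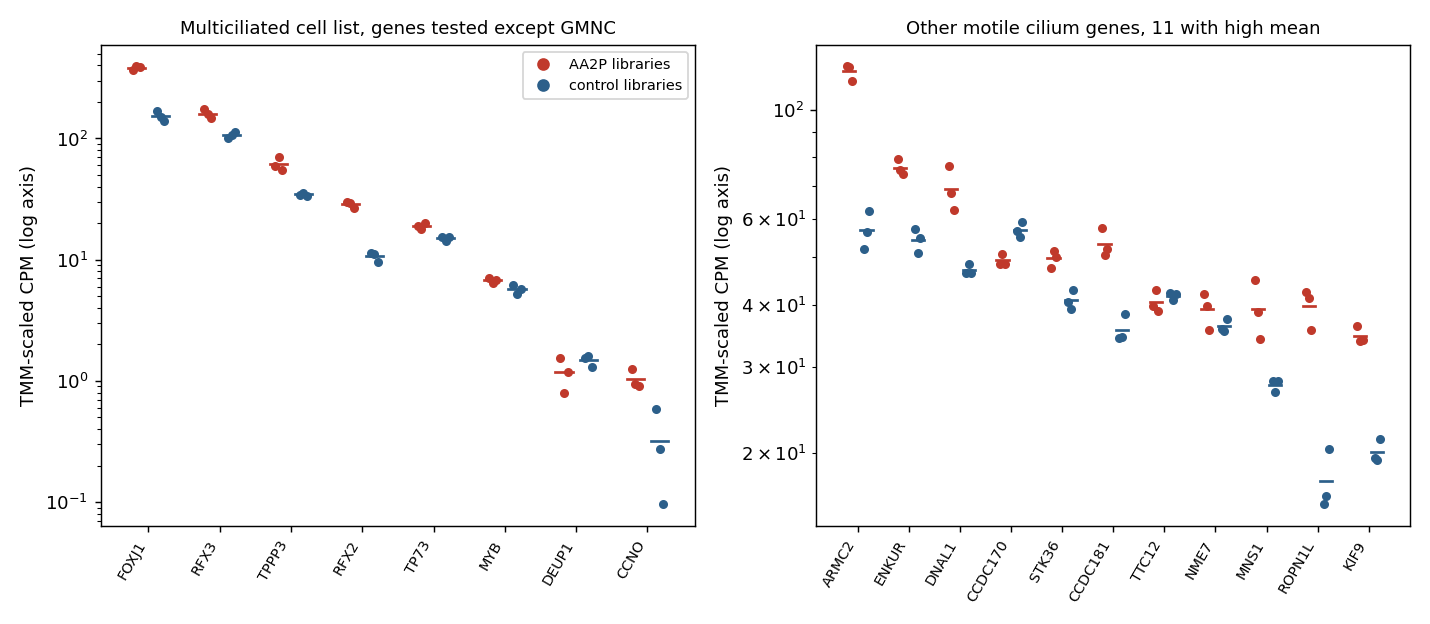
TMM-scaled CPM on a log axis for each library, with group means as lines, for the multiciliated cell genes tested (left, GMNC left out because its controls hold counts of 0) and for 11 other motile cilium genes tested with high means (right). FOXJ1, RFX2 and RFX3 lie higher in all AA2P libraries, and CCDC170 lies lower.

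Germ cells could also carry axoneme transcripts. Of 12 round spermatid genes listed, 7 had a row, none was tested, and 6 had at most 3 counts in every library. Their summed level was 0.288 to 0.801 CPM in AA2P libraries and 0.225 to 0.331 CPM in control libraries. PRM1, TNP1 and ACR were not analysed here, and PRM2 had at most 2 counts in a library. Round spermatids are not found in fetal testis, so the low counts of their genes were fixed by the age and say nothing of other germ cells. The germ cell list had 4 of 7 genes with a row, summed to 2.50 to 3.45 CPM in AA2P libraries and 2.76 to 3.69 CPM in control libraries, and its 2 tested genes, UCHL1 and DND1, did not pass. The summed level of 3 Leydig genes was 6.36 to 7.38 CPM in AA2P libraries and 5.58 to 5.84 CPM in control libraries. Nearly all of it was STAR, which did not pass. That of 5 peritubular and stromal genes, nearly all of it TAGLN, was 284 to 334 CPM in AA2P libraries and 372 to 382 CPM in control libraries. TAGLN fell, but not with library totals, where its adjusted p was 0.0723 in edgeR's test. The summed level of 4 macrophage genes was 5.09 to 5.81 CPM in AA2P libraries and 0.766 to 1.55 CPM in control libraries, with AIF1 at averages of 5.17 CPM in AA2P and 0.727 CPM in control libraries, while CSF1R and CD163 had at most 2 counts. CD68 went the other way, with 4, 3 and 4 counts in AA2P libraries and 7, 6 and 8 counts in control libraries. The higher sum thus came from AIF1, which rose and passed the filter on low counts only through its AA2P libraries. The 1 endothelial gene with a row, PECAM1, rose, with 6.08 to 7.83 CPM in AA2P libraries and 2.03 to 2.70 CPM in control libraries, and the 2 erythroid genes had at most 3 counts. The part of other cell types in the axoneme results was not tested.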

How the data were processed

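RNA sequencing of 6 libraries, 3 of AA2P-treated and 3 of control cells, was analysed from a table of whole-number read counts per gene, which the authors deposited without normalization. The submitters' processing notes name bcl2fastq and HISAT2 2.0.5, a spliced aligner. The read counter, strand setting, gene annotation and genome build are not stated. Pig Ensembl identifiers were paired with symbols from a table of gene names, which gave 13141 of 17670 a symbol.

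Differential expression was computed in R 4.3.3 with edgeR 4.0.16: filterByExpr with the group, TMM factors, a model with the group alone, the quasi-likelihood F test, and Benjamini-Hochberg adjustment over 12701 genes. A log2 fold change is that of AA2P over control, and its standard error is its size divided by the root of F. The procedure was tested on simulated data. It recovered 37 of 47 genes changed by a log2 size of 0.5 and 48 of 50 changed by 1, with 9 false calls among 191. Far fewer genes changed in the simulation than were called here, so it does not test the scaling of these libraries. DESeq2 1.42.0 and limma 3.58.1 were alternatives.

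Genes named are, in each axoneme part, the 4 with the highest mean CPM, the 6 largest rises and 6 largest falls, and the 3 highest tested genes of each list; others were chosen after their values were seen, or because they complete a part. The members, lists and tests were chosen with earlier results of these data known. A gene that this rule would name is not reported here.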

Additional observations from a re-analysis of the deposited data

How the results depend on the processing

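Of the 67 axoneme genes that rose, 57 were also called higher under all 14 other settings tried: scaling by DESeq2 size factors or by library totals, no filter on low counts, at least 1 CPM in 3 libraries, limma-voom, DESeq2's Wald test, a replicate block, an adjusted p of 0.01, and each library left out. The other 10 were CFAP126, CFAP298, CFAP43, CFAP74, CFAP77, DNAAF9, DRC7, GAS8, RSPH3 and SPAG16. CFAP43, CFAP77 and DRC7 were not tested in the 1 CPM filter, where fewer genes remained. No named gene changed direction with a call.

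With library totals the calls over all genes were 5727 higher and 1822 lower, 1 axoneme gene and 0 other motile cilium genes were lower, and the axoneme median log2 fold change was 1.04. The median of all genes moved by 0.17 in that setting.

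Leaving out each library in turn gave 63 to 67 axoneme genes higher and 2 to 3 lower, with a median of 0.82 to 0.94, and 28 to 32 other motile cilium genes higher. Over all genes it gave 2869 to 3438 higher and 2845 to 3437 lower. At an adjusted p of 0.01, 61 axoneme genes were higher and 3 lower.

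The labels state no pairing of the replicate numbers, so the numbers were not taken as pairs. Deviations from the group means had correlations of -0.04, -0.02 and -0.06 in same-numbered libraries. They were -0.07 to 0.11 in differently numbered ones. With so few libraries per group these values cannot show whether libraries were paired. With the replicate block 66 axoneme genes were higher and 3 lower, and DNAAF9 had an adjusted p of 0.0600 in edgeR's test. Over all genes the block gave 3094 higher and 3110 lower.

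Levels per coding length, promoter motifs and dynein protein sequences were planned and not run, since no length or sequence table was used here. Genes at a few counts, such as DNAI1 and CFAP43, are limited by depth.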
